A study of Mus musculus with 7 samples.

Results

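Small nucleolar RNAs (snoRNAs) and transcripts of the snoRNA host genes named Snhg, with Gas5, were examined in LSK cells of Ddx41+/+ and Ddx41+/- bone marrow. All rows of the deposited count table whose symbol began with Snora, Snord or Snhg followed by a digit were taken, together with Gas5. This gave 126 of 24421 rows. They fell into 110 snoRNA rows (36 Snora and 74 Snord) and 16 host rows (Snhg and Gas5). By the annotation, 15 of the snoRNA rows lay inside a host row, in 10 of the host rows.

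LSK cells are lineage-negative marrow cells that carry Sca-1 and Kit, and they include stem cells and multipotent progenitors. They were sorted from the leg bones of transplanted mice and their transcripts were counted by RNA-seq. Marrow donors carried RosaCreERT2, a Cre recombinase present in every cell and active only with tamoxifen, and either a heterozygous floxed Ddx41 allele (Ddx41+/- after recombination, 3 samples, replicates 6 to 8) or wild-type Ddx41 (Ddx41+/+, 4 samples, replicates 1 to 4). All recipients were BoyJ mice, all were given tamoxifen, and all were sacrificed 8 weeks after the transplant. Ages of the mice, whether a sample was 1 mouse, and whether donor cells were separated from residual recipient cells in this sort are not given in the labels, so that the p-values measure the spread between these samples.

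The targeted gene Ddx41, a DEAD-box RNA helicase, was measured at 92.8, 98.8, 93.3 and 107 CPM (counts scaled to library size) in Ddx41+/+ replicates 1 to 4 and at 68.1, 64.4 and 69.5 CPM in Ddx41+/- replicates 6 to 8. The Ddx41+/- mean was 68.8% of the Ddx41+/+ mean (log2 fold change -0.54, SE 0.071, BH-adjusted p = 0.0052, edgeR quasi-likelihood test), in the direction of the labels. Total counts ranged from 32234499 to 43751290 per sample. All 10 LSK markers examined were present and summed to 1754 to 1943 CPM in Ddx41+/+ and to 1629 to 1767 CPM in Ddx41+/- samples. Kit (466 and 468 CPM) and Ly6a (Sca-1, 20.9 and 20.8 CPM) had like means in Ddx41+/+ and Ddx41+/- samples, whereas the other 8 had lower means in Ddx41+/-, such as Slamf1 (8.66 and 6.30 CPM), Flt3 (250.1 and 197 CPM) and Procr (6.22 and 4.06 CPM), with 0 at a BH-adjusted p under 0.05. Summed markers of mature neutrophils were at 755 to 1272 CPM in Ddx41+/+ and at 1360 to 2327 CPM in Ddx41+/- samples. Of these 10 markers, 1 (Mmp9) had a BH-adjusted p under 0.05 (edgeR quasi-likelihood test), against 0.217% of all genes tested. The part of either marker list in the values below was not tested.

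SnoRNAs guide chemical modification of ribosomal RNA and other RNAs in the nucleolus. Box C/D snoRNAs (Snord) direct methylation of ribose and are bound by fibrillarin, whereas H/ACA snoRNAs (Snora) direct the conversion of uridine to pseudouridine and are bound by dyskerin. In mammals most are cut out of introns after splicing of a longer host transcript. Some hosts encode ribosomal proteins or translation factors, and others, such as Gas5 and the Snhg genes, make noncoding spliced RNAs that are known substrates of nonsense-mediated decay. Blood stem and progenitor cells depend closely on ribosome production, of which snoRNAs are a part.

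The libraries were made from poly(A)-selected RNA. Mature snoRNAs carry no poly(A) tail and are short, so that the snoRNA rows count fragments that came through a selection made for other RNAs. By the GENCODE M21 annotation of GRCm38, 53 snoRNA rows lay in an intron of the gene around them and 51 met an annotated exon of it. Exons of all annotated transcripts of a gene were pooled. A row that met an exon can therefore still lie in an intron of another transcript of that gene. Reads of a snoRNA and reads of its host transcript over the same bases cannot be told apart in these counts. The snoRNA genes were short, from 64 to 238 bases, with a median of 80 bases in Snord and 132 bases in Snora rows.

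The sequences below are those of chosen snoRNA rows, read from the GENCODE M21 transcripts (GRCm38, RNA strand, written as DNA, 5′ to 3′). For Snord, capitals mark the C box (TGATGA, searched in the first 20 bases) and the D box (CTGA, searched in the last 14 bases). For Snora, capitals mark the ACA triplet (searched in the last 8 bases) and the first H box (ANANNA, searched from base 51 to base 90). The first set is the snoRNAs of Rpl13a, shown because they come from a single host gene and had unlike values. They lie on the minus strand at chr7:45127382-45127464 (Snord32a), chr7:45126864-45126947 (Snord33), chr7:45126601-45126670 (Snord34) and chr7:45126346-45126435 (Snord35a).
Snord32a: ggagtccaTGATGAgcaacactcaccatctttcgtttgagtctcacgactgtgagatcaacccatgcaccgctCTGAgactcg
Snord33: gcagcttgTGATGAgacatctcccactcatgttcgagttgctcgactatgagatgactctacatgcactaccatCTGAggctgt
Snord34: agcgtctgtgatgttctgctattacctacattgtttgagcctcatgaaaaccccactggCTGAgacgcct
Snord35a: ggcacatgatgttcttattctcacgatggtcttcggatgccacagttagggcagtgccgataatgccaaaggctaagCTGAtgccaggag

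The second set holds the other snoRNA rows with an unadjusted p under 0.05. Snora28 lies on the plus strand at chr12:111540941-111541067 and meets an exon of Eif5. Snord43 lies on the minus strand at chr15:80082847-80082954 in an intron of Rpl3. The GENCODE record of this symbol is 108 bases long and typed as a miRNA, and neither box was found in its windows. Snora2b lies on the minus strand at chr15:98526346-98526482 and meets an exon of Kansl2. Snora43 lies on the minus strand at chr2:26637847-26637985 inside Snhg7, by the RefSeq gene positions of GRCm38.p6, which do not state exon or intron.
Snora28: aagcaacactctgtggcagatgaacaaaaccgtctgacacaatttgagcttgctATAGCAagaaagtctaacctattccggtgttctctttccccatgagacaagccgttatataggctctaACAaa
Snord43: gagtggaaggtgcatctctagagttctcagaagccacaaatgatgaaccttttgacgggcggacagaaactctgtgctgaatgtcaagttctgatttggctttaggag
Snora2b: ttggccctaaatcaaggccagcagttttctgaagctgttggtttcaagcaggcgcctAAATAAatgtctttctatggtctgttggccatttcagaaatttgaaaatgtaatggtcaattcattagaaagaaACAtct
Snora43: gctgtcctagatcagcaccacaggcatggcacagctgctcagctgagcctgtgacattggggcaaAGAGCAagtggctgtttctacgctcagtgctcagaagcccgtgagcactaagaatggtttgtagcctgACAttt

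The third set holds the 3 snoRNA rows with the most counts, which together took 26.2% of all snoRNA counts. Snord96a lies on the plus strand at chr11:48802032-48802112 and meets an exon of Rack1, Snord22 on the plus strand at chr19:8725866-8725991 and meets an exon of Snhg1, and Snora65 on the plus strand at chr2:32963291-32963420 and meets an exon of Rpl12.
Snord96a: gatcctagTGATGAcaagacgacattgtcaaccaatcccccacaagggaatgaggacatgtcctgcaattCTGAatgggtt
Snord22: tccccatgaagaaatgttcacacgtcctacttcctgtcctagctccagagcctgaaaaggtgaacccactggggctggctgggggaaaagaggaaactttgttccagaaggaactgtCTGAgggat
Snora65: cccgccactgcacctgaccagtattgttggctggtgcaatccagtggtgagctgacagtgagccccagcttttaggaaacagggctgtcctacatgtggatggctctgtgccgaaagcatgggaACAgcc

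Of 72 Snord sequences read, 46 (63.9%) held the C box, 65 (90.3%) held the D box and 44 (61.1%) held both in these windows. In the first 80 bases of 32851 RefSeq promoter windows, searched the same way, the shares were 0.365%, 5.78% and 0.0244%. Of 35 Snora sequences, 33 (94.3%) held the ACA triplet, 33 (94.3%) held the H box and 31 (88.6%) held both, against 9.13%, 43.8% and 4.58% of 132-base windows. The classes are named for these boxes, so that their excess over promoter windows was set by the naming and bears on no genotype difference. Only the RNA strand was searched. A box that lay outside a window, as where the annotation runs past the ends of the mature RNA, was not counted.

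The host rows were measured with many counts and did not differ detectably between the genotypes. Of the 16 host rows, 14 passed the filter on low counts. Snhg18 was at 0 in all samples, and Snhg14 had 5 counts, all in Ddx41+/- replicate 8. None of the 14 reached a BH-adjusted p under 0.05, against 0.217% of all 13340 genes tested, and 0 of 14 reached an unadjusted p under 0.05, against 10.6% of all genes (edgeR quasi-likelihood test). DESeq2 and limma-voom also called 0 of them, with 1 host each at an unadjusted p under 0.05. Their median log2 fold change was -0.0037, beside -0.0048 over all genes tested, with 6 rows above 0 and 8 below, where 48.8% of all genes were above 0.

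Gas5 held 53.7% of all host counts and was also the highest host per kilobase of exon, at 108 CPM per kb. It was at 347, 380, 410 and 448 CPM in Ddx41+/+ replicates 1 to 4 and at 389, 438 and 424 CPM in Ddx41+/- replicates 6 to 8, which all lay inside the Ddx41+/+ range. The log2 fold change was 0.07 (SE 0.078, 95% interval -0.09 to 0.24, BH-adjusted p = 0.795). On the linear scale the interval ran from 0.937 to 1.18 times the Ddx41+/+ level. Gas5 lies at chr1:161034422-161038539 and its spliced RNA is also known as a decoy for the glucocorticoid receptor.

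Snhg1, the host of Snord22, was at 77.5, 79.0, 88.5 and 90.3 CPM in Ddx41+/+ and at 89.1, 93.0 and 85.3 CPM in Ddx41+/- samples (log2 fold change 0.09, 95% interval -0.07 to 0.24, BH-adjusted p = 0.717). The genotypes overlapped, although the highest sample was Ddx41+/- replicate 7. Snhg5 was at 55.4, 58.6, 77.4 and 66.2 CPM against 63.7, 64.1 and 64.4 CPM (log2 fold change -0.0069, 95% interval -0.21 to 0.20). Snhg12, which holds 4 snoRNA rows that passed the filter, was at 33.1, 39.4, 43.6 and 38.7 CPM against 39.5, 38.2 and 38.3 CPM (log2 fold change -0.00060, 95% interval -0.20 to 0.20). In both hosts the 3 Ddx41+/- samples fell between the lowest and the highest Ddx41+/+ sample, and the sign of these log2 fold changes turned with the scaling or the tool.

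Snhg8 (0.11), Snhg17 (0.08) and Snhg3 (0.01) had log2 fold changes above 0, and Snhg6 (-0.16), Snhg4 (-0.21) and Snhg7 (-0.21) had log2 fold changes below 0, with BH-adjusted p from 0.566 (Snhg4) to 0.984 (Snhg3). For Snhg6 the values were 24.6, 29.6, 34.0 and 30.1 CPM in Ddx41+/+ and 27.4, 27.4 and 24.8 CPM in Ddx41+/- samples. Snhg7, the host of Snora43 and Snora17, was at 11.8, 12.9, 14.3 and 11.3 CPM against 11.3, 10.2 and 10.98 CPM. All of these overlapped between the genotypes. For 10 of the 14 host rows (71.4%) the 95% interval lay within 1.5-fold either way, against 70.2% of all genes, and the same number had at least 100 counts in every sample.

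**Figure D1:**
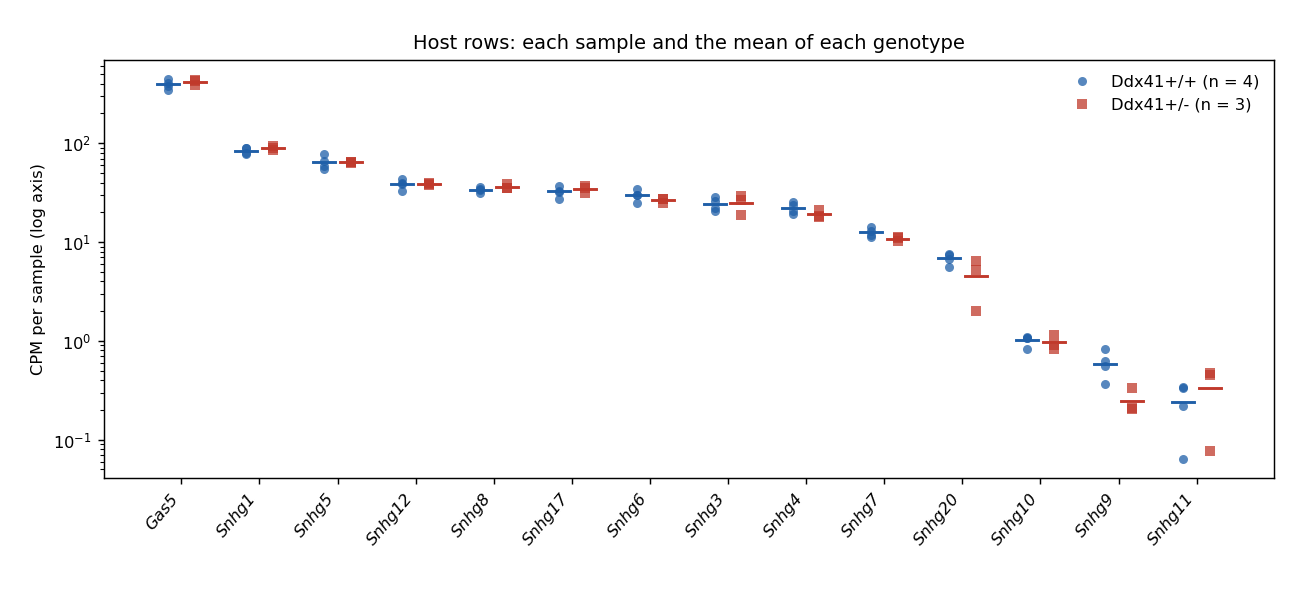
CPM (log axis) of the 14 host rows that passed the filter, with each Ddx41+/+ sample as a circle (n = 4), each Ddx41+/- sample as a square (n = 3) and the mean of each genotype as a bar. The genotypes overlapped for all hosts except Snhg9, and Snhg20 was low in a single Ddx41+/- sample.

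The 4 remaining hosts had few counts or 1 sample that stood apart. Snhg20 was at 6.79, 7.38, 5.56 and 7.60 CPM in Ddx41+/+ and at 6.42, 1.99 and 5.19 CPM in Ddx41+/- samples (log2 fold change -0.59, SE 0.30, BH-adjusted p = 0.524). Replicate 7, with 67 counts, was the low sample, and the log2 fold change was -0.24 without it. Snhg9 was the only host without overlap, 1 of 14 against 10.1% of all genes, at 0.363, 0.621, 0.821 and 0.553 CPM against 0.330, 0.208 and 0.203 CPM (log2 fold change -1.24, 95% interval -2.57 to 0.10, BH-adjusted p = 0.515). It had 7 to 26 counts in a sample, and its direction is read against the 5.21% of all genes that were lower without overlap. Snhg10 (-0.07) and Snhg11 (0.45) had SEs of 0.43 and 0.79 on the log2 scale. Without Ddx41+/+ replicate 1, the unadjusted p of 3 hosts (Snhg4, Snhg6 and Snhg9) was under 0.05, and without Ddx41+/- replicate 6 that of 1 host (Snhg20), in each case with no host at a BH-adjusted p under 0.05.

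The snoRNA rows were far less precise. Of 110 rows, 18 were at 0 in all samples, 22 had counts (2 to 53 in total) but did not pass the filter, and 70 passed (28 Snora and 42 Snord). Of these 70, 39 had at least 10 counts in every sample, 3 had at least 100, and 7 were at 0 in some sample. A row could pass by its level in a single genotype, so that the 70 rows do not stand for all 110. Their median SE was 0.56 on the log2 scale, beside 0.11 for host rows and 0.11 over all genes, and 1 of 70 intervals lay within 1.5-fold either way. Among the rows at 0 were Snord118, the U8 snoRNA of rRNA processing, Snord14c, Snord14d and Snord116, the last belonging to the imprinted cluster of Snhg14.

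None of the 70 snoRNA rows reached a BH-adjusted p under 0.05, and the smallest was 0.279 (Snord32a, edgeR quasi-likelihood test). DESeq2 and limma-voom also called 0 of them. An unadjusted p under 0.05 was reached by 5 rows (7.14%), against 10.6% of all genes. Of these, 3 were higher in Ddx41+/- (Snora28, Snord43 and Snora2b), against 5.7% of all genes, and 2 were lower (Snord32a and Snora43), against 4.93%. The count of 5 became 1 without Ddx41+/- replicate 7 and 3 without Ddx41+/- replicate 6. Without overlap between the genotypes were 5 rows (7.14%), with 2 higher (Snora28 and Snord43), against 4.85% of all genes, and 3 lower (Snord32a, Snora43 and Snora65), against 5.21%. The median log2 fold change was 0.10, beside -0.0048 over all genes tested. Above 0 were 42 rows (60.0%), against 48.8% of all genes, and 28 were below. When samples were left out in turn, the median of the snoRNA rows was lowest at 0.0026 (Ddx41+/- replicate 8 absent) and highest at 0.32 (Ddx41+/+ replicate 4 absent). The median was 0.11 in Snora and 0.10 in Snord rows.

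**Figure D2:**
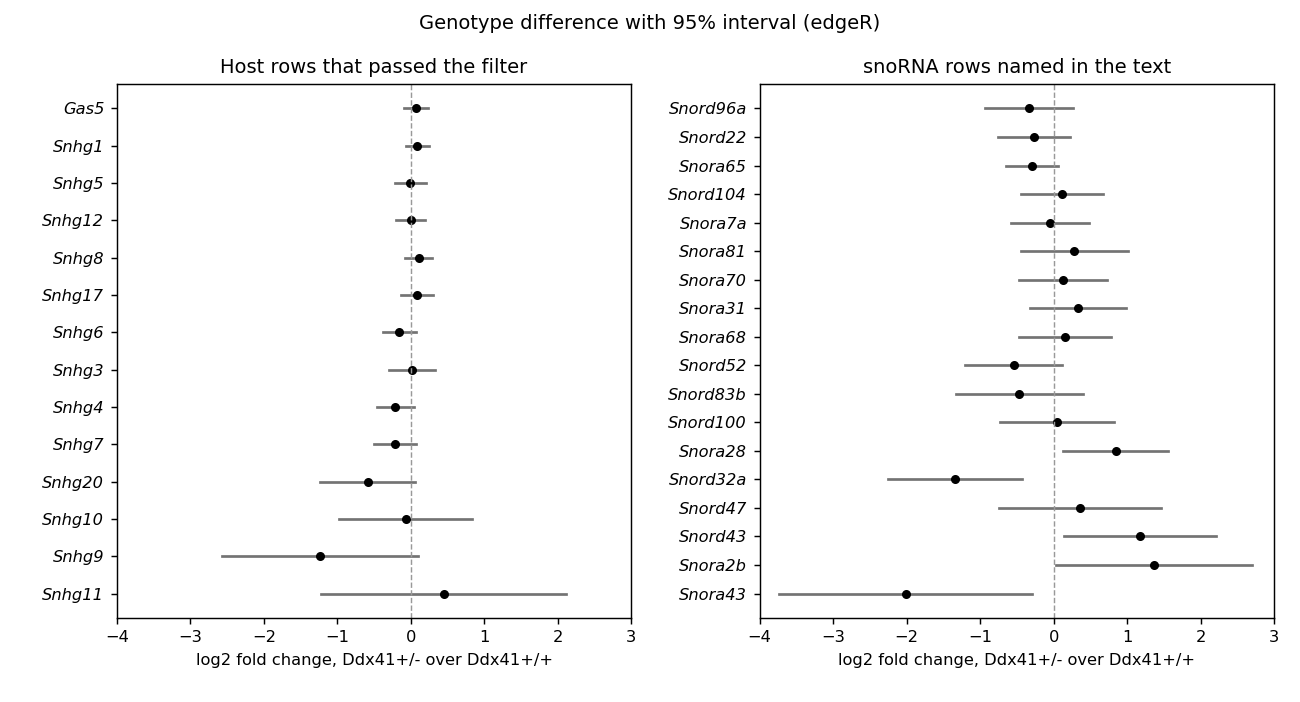
Log2 fold change of Ddx41+/- over Ddx41+/+ (points) with the 95% interval of the edgeR fit (lines), for the 14 host rows that passed the filter (left) and the 18 named snoRNA rows (right), each ordered by mean CPM. The upper hosts had short intervals around 0, whereas the snoRNA intervals were wide and excluded 0 before adjustment in 5 rows.

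Snord32a, a box C/D snoRNA of Rpl13a that guides methylation of ribosomal RNA, had the smallest p of all members. It was at 1.35, 1.48, 1.33 and 1.91 CPM in Ddx41+/+ replicates 1 to 4 and at 0.736, 0.504 and 0.541 CPM in Ddx41+/- replicates 6 to 8. All 3 Ddx41+/- samples were below all 4 Ddx41+/+ samples. The log2 fold change was -1.35 (SE 0.43, 95% interval -2.25 to -0.44) with a BH-adjusted p of 0.279 by edgeR and 0.0793 by DESeq2. It had 42 to 69 counts in Ddx41+/+ and 17 to 29 counts in Ddx41+/- samples, and the log2 fold change lay between -1.53 and -1.22 when samples were left out in turn.

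Its host Rpl13a, a protein of the large ribosomal subunit, was at 1574, 1692, 1721 and 1576 CPM in Ddx41+/+ and at 1702, 1476 and 1547 CPM in Ddx41+/- samples (log2 fold change -0.06, SE 0.065, BH-adjusted p = 0.800). The Snord32a count was 0.0860%, 0.0872%, 0.0771% and 0.121% of the Rpl13a count in Ddx41+/+ and 0.0433%, 0.0342% and 0.0350% in Ddx41+/- samples, not scaled for length. This share did not overlap between the genotypes, but it reuses the same Snord32a counts and is not a separate observation. The other snoRNAs of Rpl13a shown above were less precise. Snord34 (log2 fold change -0.84, SE 0.50), Snord33 (-0.18, SE 0.60) and Snord35a (0.38, SE 0.51) all overlapped between the genotypes, with BH-adjusted p of 0.582, 0.945 and 0.842. Snord35a was highest in Ddx41+/- replicate 6, at 1.52 CPM, the sample in which Snord34, at 0.635 CPM, was below 4 of the others.

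Snora28, an H/ACA snoRNA within Eif5, was at 1.06, 1.27, 1.17 and 1.71 CPM in Ddx41+/+ and at 1.78, 2.58 and 2.66 CPM in Ddx41+/- samples. The genotypes did not overlap, but the lowest Ddx41+/- sample was close to the highest Ddx41+/+ sample (log2 fold change 0.84, SE 0.33, BH-adjusted p = 0.380). Eif5, a factor of translation initiation, was itself at 263, 289, 286 and 273 CPM against 305, 306 and 329 CPM, also without overlap (log2 fold change 0.17, SE 0.059, BH-adjusted p = 0.312). As a share of the Eif5 count, Snora28 overlapped between the genotypes, at up to 0.628% in Ddx41+/+ and from 0.584% in Ddx41+/- samples. The row met an Eif5 exon, so that its reads and those of Eif5 cannot be told apart.

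Snord43, a box C/D snoRNA by its symbol but a miRNA by its annotation record, lay in an intron of Rpl3. It was at 0.459, 0.673, 0.411 and 0.470 CPM in Ddx41+/+ and at 1.09, 1.42 and 0.924 CPM in Ddx41+/- samples. All 3 Ddx41+/- samples were above all 4 Ddx41+/+ samples (log2 fold change 1.18, SE 0.49, BH-adjusted p = 0.403), from 13 to 48 counts in a sample. Snord83b, in another intron of Rpl3, went the other way in value, at 2.78, 2.56, 0.885 and 4.03 CPM against 2.49, 1.54 and 1.56 CPM (log2 fold change -0.47, SE 0.41, BH-adjusted p = 0.736). The share of the Rpl3 count taken by Snord43 did not overlap, at up to 0.0333% in Ddx41+/+ and from 0.0520% in Ddx41+/- samples. That share reuses the same Snord43 counts and is not a separate observation. The genotypes overlapped widely for Snord83b, and Rpl3 had a log2 fold change of -0.10 (BH-adjusted p = 0.621).

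Snora43, within Snhg7, had the most negative value, at 0.508, 0.181, 0.821 and 0.414 CPM in Ddx41+/+ and at 0.127, 0.0297 and 0.180 CPM in Ddx41+/- samples (log2 fold change -2.02, SE 0.81, BH-adjusted p = 0.384). The gap between the genotypes was the difference between 0.181 and 0.180 CPM, and the counts ran from 1 to 26. As a share of the Snhg7 count it overlapped, from 1.41% in Ddx41+/+ and up to 1.64% in Ddx41+/- samples. Snora17, in the same host, had a log2 fold change of 0.57 (SE 0.72, BH-adjusted p = 0.831). Snora2b, within Kansl2, was at 0.411, 0.207, 0.158 and 0.442 CPM against 0.381, 0.682 and 1.31 CPM (log2 fold change 1.36, SE 0.63, BH-adjusted p = 0.455). Its genotypes overlapped, and the log2 fold change was 0.78 without Ddx41+/- replicate 8.

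**Figure D3:**
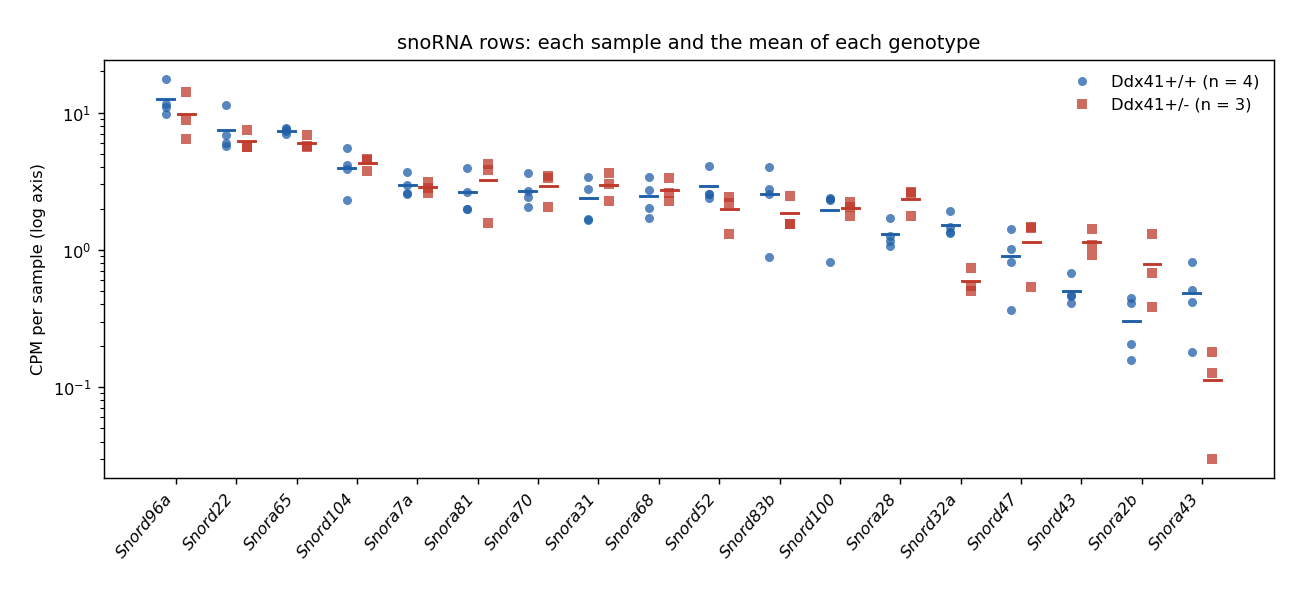
CPM (log axis) of the 18 named snoRNA rows, with each Ddx41+/+ sample as a circle (n = 4), each Ddx41+/- sample as a square (n = 3) and the mean of each genotype as a bar. Snord32a, Snora43 and Snora65 lay lower, and Snora28 and Snord43 higher, in Ddx41+/- samples without overlap, none with a BH-adjusted p under 0.05.

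The snoRNA rows with the most counts had shorter intervals. Snora65, an H/ACA snoRNA within Rpl12, was at 6.94, 7.40, 7.68 and 7.57 CPM in Ddx41+/+ and at 5.71, 5.58 and 6.83 CPM in Ddx41+/- samples. The genotypes did not overlap, by a margin of 6.94 against 6.83 CPM (log2 fold change -0.29, SE 0.17, 95% interval -0.64 to 0.06, BH-adjusted p = 0.571). It was the row with the smallest SE of all snoRNA rows and had 188 to 303 counts in a sample. Rpl12 had a log2 fold change of -0.04 (BH-adjusted p = 0.895), and the share of its count taken by Snora65 overlapped, from 0.554% in Ddx41+/+ and up to 0.584% in Ddx41+/- samples.

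Snord96a, within Rack1 (listed as Gnb2l1), was the highest snoRNA row, at 11.5, 9.86, 10.99 and 17.7 CPM in Ddx41+/+ and at 8.91, 6.44 and 14.2 CPM in Ddx41+/- samples (log2 fold change -0.34, SE 0.27, BH-adjusted p = 0.709). Snord22, within Snhg1, was at 6.84, 6.01, 5.75 and 11.3 CPM against 5.59, 5.58 and 7.42 CPM (log2 fold change -0.27, SE 0.23, BH-adjusted p = 0.730). In both rows Ddx41+/+ replicate 4 and Ddx41+/- replicate 8 were the highest of their genotype. Per kilobase of annotated exon, Snord96a (140 CPM per kb) was above Gas5. Snord104 (58.8 CPM per kb), for which no containing gene was found in the annotation, and Snord22 (55.0 CPM per kb) followed. The length used was 81 bases for Snord96a, which meets an exon of Rack1. For Gas5 it was 3760 bases, the union of all annotated exons. These values therefore do not rank the RNAs by abundance.

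The remaining rows among the 6 most abundant of each class had log2 fold changes from -0.55 (Snord52) to 0.33 (Snora31), with Snora7a (-0.05), Snora81 (0.28), Snora70 (0.13), Snora68 (0.15), Snord104 (0.11), Snord83b (-0.47) and Snord100 (0.05) between them. Snord52 had a BH-adjusted p of 0.566 and Snord100 of 0.980. Snord47, the Gas5 snoRNA in the table with enough counts to test, was at 0.822, 0.362, 1.01 and 1.41 CPM in Ddx41+/+ and at 1.47, 0.534 and 1.44 CPM in Ddx41+/- samples (log2 fold change 0.36, SE 0.52, BH-adjusted p = 0.859). The values of both genotypes spanned nearly the same range. Snora69, Snord88a, Snord23, Snord111 and Snord87, the rows with the most counts among those that did not pass, had 0 to 26 counts in a sample.

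To compare snoRNA rows with the genes that contain them, 69 pairs in 52 genes could be formed from the rows that passed the filter. The values of containing genes were narrow, with an SD of 0.19 on the log2 scale that included Snhg9 at -1.24 (SE 0.63). Those of the snoRNA rows were wide, with an SD of 0.59. The 70 snoRNA rows that passed had a median SE of 0.56, close to that SD. The signs and correlations below therefore cannot show whether snoRNA rows departed from their genes. In 36 pairs (52.2%) both members had the same sign. Pearson's r of the log2 fold changes was 0.17 and Spearman's rho was 0.12 over the 69 pairs, which share libraries and, in part, containing genes and reads. Of 12 genes with at least 2 such rows, 10 had rows on both sides of 0. With a median SE of 0.56, rows of a gene can fall on both sides of 0 by error alone. The count was not set against a chance share. In Snhg12 the 4 rows ran from -0.67 (Snora61) over -0.41 (Snord99) and -0.17 (Snora16a) to 0.09 (Snora44).

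**Figure D4:**
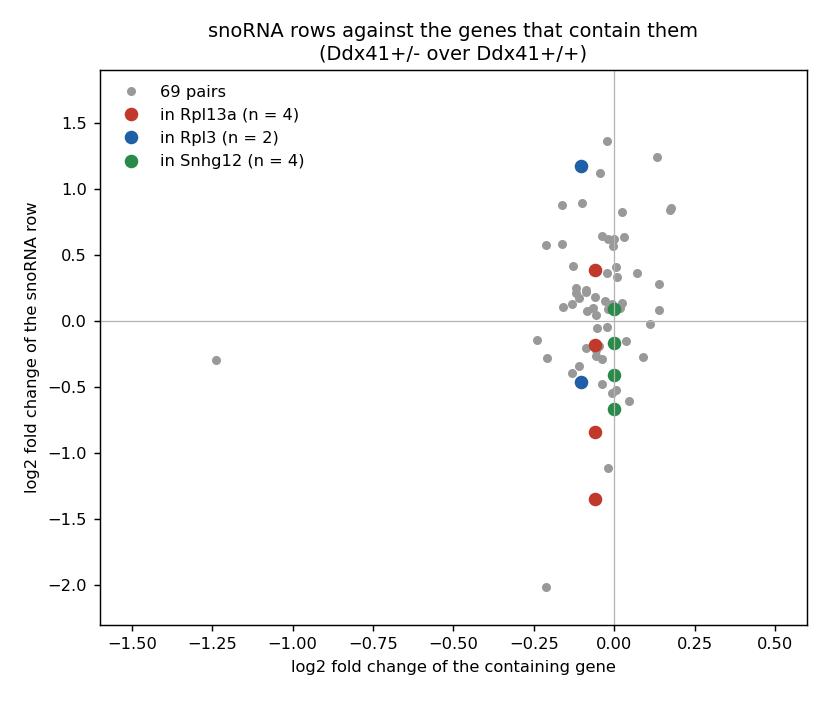
Log2 fold change (Ddx41+/- over Ddx41+/+) of each snoRNA row (vertical axis) against that of the gene that contains it (horizontal axis), for 69 pairs, with the pairs in Rpl13a, Rpl3 and Snhg12 in colour. Containing genes lay close to 0, apart from Snhg9 at -1.24. The snoRNA rows had a median SE of 0.56 and lay on both sides of 0. They did so within 10 of the 12 genes with at least 2 rows.

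The containing genes themselves showed no call. Of the 66 that passed the filter and were not Snhg or Gas5 rows, 0 had a BH-adjusted p under 0.05 and 9 (13.6%) had an unadjusted p under 0.05, against 10.6% of all genes (edgeR quasi-likelihood test). Their median log2 fold change was -0.02. Ribosomal protein genes contained 32 snoRNA rows in 23 genes, and 27 of these rows passed the filter with a median log2 fold change of 0.10 and 16 of 27 above 0. The 84 ribosomal protein genes that passed had a median of -0.07, beside -0.0048 over all genes tested. Of these, 74 were below 0 and 10 (11.9%) above 0, where 48.8% of all genes were above 0. An unadjusted p under 0.05 was reached by 8 (9.52%), near the 10.6% of all genes, and a BH-adjusted p under 0.05 by 0, against 0.217%.

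Summed over all rows, snoRNA levels differed more between samples than between genotypes. The 110 snoRNA rows summed to 89.8, 89.2, 85.7 and 121 CPM in Ddx41+/+ (96.5 ± 16.6 CPM, SD, n = 4) and to 90.01, 82.8 and 112 CPM in Ddx41+/- samples (94.8 ± 15.1 CPM, SD, n = 3), 98.3% of the Ddx41+/+ mean. Ddx41+/+ replicate 4 and Ddx41+/- replicate 8 stood above the other 5 samples, and the difference between the means was smaller than the spread within either genotype. Of the 70 rows that passed the filter, 22 were highest in replicate 4 and 18 in replicate 8, while 23 were lowest in Ddx41+/+ replicate 3 and 17 in Ddx41+/- replicate 7.

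The rRNA precursor Rn45s, which also lacks a poly(A) tail, held 1.52%, 1.67%, 2.92% and 0.876% of the counts in Ddx41+/+ and 2.05%, 2.58% and 0.623% in Ddx41+/- samples. It was lowest in the 2 samples with the highest snoRNA sums and highest in the 2 with the lowest sums, and its part in the snoRNA values was not tested. The other RNAs without a poly(A) tail (15 rows, among them the telomerase RNA Terc and the Scarna genes) summed to 3.60, 2.38, 5.62 and 4.95 CPM against 3.33, 7.27 and 5.84 CPM and did not share that order. Of the 16 rows of this list, Rn45s included, 6 passed the filter, with a median log2 fold change of 0.34 and 0 at an unadjusted p under 0.05, against 10.6% of all genes, a share that 6 rows are too few to set apart from 0.

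Host rows summed to 662, 713, 796 and 817 CPM in Ddx41+/+ (747 ± 72.4 CPM, SD, n = 4) and to 741, 792 and 767 CPM in Ddx41+/- samples (767 ± 25.2 CPM, SD, n = 3). All 3 Ddx41+/- sums lay within the Ddx41+/+ range. The snoRNA sum was 13.6%, 12.5%, 10.8% and 14.9% of the host sum in Ddx41+/+ and 12.1%, 10.45% and 14.6% in Ddx41+/- samples, without scaling for length. Of the 110 snoRNA rows, 15 lay inside a host row, so that this share does not set snoRNAs against their own hosts. Replicates 4 and 8 were again the highest of their genotype.

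**Figure D5:**
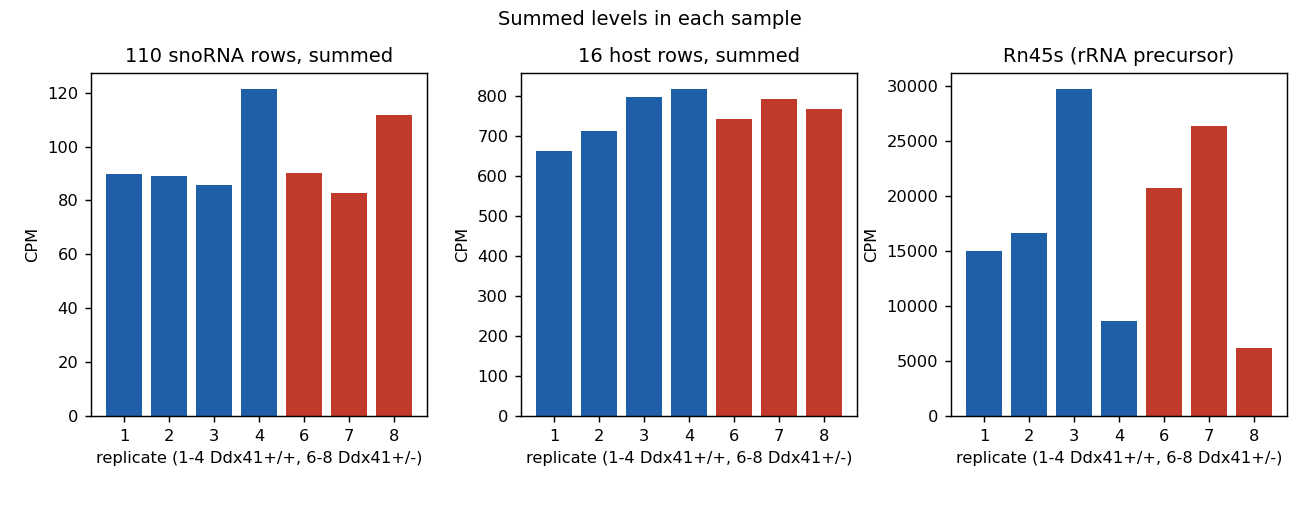
Summed CPM of the 110 snoRNA rows (left), the 16 host rows (middle) and Rn45s (right) in each sample, with Ddx41+/+ replicates 1 to 4 in blue and Ddx41+/- replicates 6 to 8 in red, and axes that start at 0. Replicates 4 and 8 had the highest snoRNA sums and the lowest Rn45s, and host sums did not separate the genotypes.

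The genes that make and handle these RNAs were measured precisely and gave no call at a BH-adjusted p under 0.05. The 18 snoRNP core and assembly genes, which include the methyltransferase Fbl and the pseudouridine synthase Dkc1, had a median log2 fold change of -0.03 with 0 at an unadjusted p under 0.05, against 10.6% of all genes, and all 18 intervals lay within 1.5-fold either way, against 70.2%. Of the 13 genes of snoRNA and intron processing, 2 (15.4%, near the 10.6% of all genes) had an unadjusted p under 0.05, the exonuclease Xrn1 (log2 fold change 0.53, SE 0.19) and the export receptor Xpo1 (0.15, SE 0.060), and the median was 0.04. Nonsense-mediated decay is the pathway that degrades Gas5 and Snhg RNAs. Of 12 of its factors, 1 (8.33%, near the 10.6% of all genes) had an unadjusted p under 0.05. It was Upf2 (log2 fold change 0.18, SE 0.067), and the median of the 12 was 0.05.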

How the data were processed

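RNA-seq counts of LSK cells from 4 Ddx41+/+ and 3 Ddx41+/- samples were used, grouped by the genotype in the labels. The values the authors deposited are raw counts for each gene symbol, without normalization. Libraries were poly(A)-selected TruSeq libraries. The labels name a stranded kit and the published methods an unstranded version, and whether strand was used in counting is not stated. The submitters' processing notes name FastQC 0.11.7, HISAT2 2.0.5, featureCounts 1.5.2 and the mm10 build, and how reads shared by several features were counted is not given in the sources used here. A Ddx41+/- library numbered 5, removed by the authors, was not analysed here.

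Rows that passed filterByExpr at a minimum count of 10 (13340 genes, 54.6% of rows) were compared by edgeR 4.0.16. The test was quasi-likelihood (R 4.3.3, robust, TMM scaling, no covariate). The filter works on library-scaled counts in some of the samples, so that a row that passed can hold fewer than 10 counts in a sample. Benjamini-Hochberg (BH) adjustment covered all genes tested, with a threshold of 0.05. CPM used TMM-scaled library sizes, and per-kilobase values used the union of GENCODE M21 exons. SEs were derived from the F statistic. Sums, pairs and medians were described without a test. Total counts were 32234499 to 43751290 per sample, and the biological coefficient of variation was 12.9%. By the within-genotype spread of the counts, counting error came to a median of 33.4% of the SD over all genes tested and 41.9% in snoRNA rows. All columns of sample values were used. No pair of libraries agreed within sampling noise.

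Of 126 members, 125 were placed on GRCm38 (GENCODE M21, or RefSeq GRCm38.p6 for symbols it lacks), and Snord116 was not. Promoter windows came from RefSeq. Like rows may have split or lost reads, which was not tested. Examples are Snord14c and Snord14d (97.7% identical, both without counts) and Snord1b and Snord1c (97.4%).

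The members, lists and tests were chosen with earlier results of these data known. Named were Ddx41, hosts that passed the filter, snoRNA rows with an unadjusted p under 0.05, the 6 Snora and 6 Snord rows with the highest mean CPM, snoRNA rows inside Gas5 or Snhg1, the 5 rows with the most counts among those not passing, and the genes that contain named rows. Other rows of Rpl13a, Snhg7 and Snhg12, Mmp9, Xrn1, Xpo1, Upf2, and rows at 0 were named after their values were seen. Scripts were tested on simulated data. Alternatives were RLE, upper-quartile and no scaling, no filter or a minimum count of 3, DESeq2 1.42.0, limma-voom (limma 3.58.1), leaving out each sample, and, added after seeing the data, leaving out Rn45s.

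Summed markers of other cell types in Ddx41+/+ and Ddx41+/- samples were 88.0 to 183 and 89.3 to 425 CPM for B lineage (8 of 10 in the table), 234 to 285 and 261 to 293 CPM for T and NK (6 of 7), 24.7 to 48.7 and 35.4 to 58.0 CPM for late erythroid (5 of 6, Hba-a1 and Hbb-bs at 0), 52.7 to 70.5 and 57.8 to 84.5 CPM for macrophage (6 of 6), and 142 to 165 and 158 to 164 CPM for stroma and endothelium genes (6 of 6).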

Additional observations from a re-analysis of the deposited data

Results flagged for a closer look

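In 7 of 62 values examined, a single Ddx41+/+ sample lay far from the other 3, by the ratio of its gap from the nearest sample to the range of the group. About 3.1 of 62 would be flagged by chance. Ddx41+/+ replicate 4 was the far sample for the snoRNA sum (ratio 0.885), for the sum without Snord96a (0.840), for the sum of rows that meet a host exon (0.920) and for Snord111 (0.865), which had 26 counts there and 0 to 4 in the other 3. These sums share rows and are not separate observations. Replicate 1 was low for Snord100 (0.951, 0.822 CPM against 2.29 to 2.37 CPM) and for Snhg10 (0.843, 0.822 CPM against 1.06 to 1.11 CPM). Replicate 3 was high for Snord52 (0.907, 4.11 CPM against 2.40 to 2.56 CPM).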

How the results depend on the processing

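No paired analysis was made because the labels give no pairing of samples between the genotypes. No host or snoRNA row had a BH-adjusted p under 0.05 under any of the 15 alternatives, and the smallest over 32 named members was 0.0793 (Snord32a, DESeq2). Of 477 log2 fold changes of these members, 453 kept their sign and 24, in 8 members, did not. Ddx41 remained lower and called in all 15. The count of all genes called was 29, and became 15 with library totals only, 91 with no filter, 164 with DESeq2, 10 with limma-voom and 7 (without Ddx41+/+ replicate 2) to 41 (without Ddx41+/+ replicate 1) on leaving out samples. Host rows with an unadjusted p under 0.05 numbered 0, and 1 with DESeq2, 1 with limma-voom and 0 to 3 on leaving out samples. Such snoRNA rows numbered 5, and 3 with no filter and 1 to 5 on leaving out samples. The cause was not tested. Signs turned for Snhg12 (0.0028 with RLE, 0.0029 with DESeq2, 0.014 with limma-voom), Snhg3 (-0.0021 with library totals only, -0.0074 with limma-voom) and Snhg5 (0.013 with limma-voom). On leaving out samples, log2 fold changes ranged from -0.069 to 0.061 (Snhg12), -0.11 to 0.18 (Snhg3), -0.073 to 0.093 (Snhg5), -0.22 to 0.026 (Snhg10), -0.13 to 0.082 (Snora7a), -0.017 to 0.34 (Snora68), -0.072 to 0.32 (Snord104) and -0.21 to 0.15 (Snord100). The median SE of snoRNA rows was 0.56, above the size of the log2 fold change of Ddx41 (-0.54), and counting error came to a median of 41.9% of their SD within genotypes, so that most of the spread was beyond counting.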
